A study of Mus musculus with 3 samples.

Results

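The genes of the acute-phase response and of complement examined here were *Lcn2*, *Saa1*, *Saa2*, *Saa3*, *Hp*, *C3* and *Cfb*. They were taken by name, through the RefSeq accession that the array design gives for each probe. No measured value entered the rule itself, but the genes were chosen with earlier results of these data known. The shares of all genes given beside their counts are therefore a description and not a test. The 7 genes had 10 probes, out of 22907 genes named on 32989 of the 56605 probes of the array. Gene expression had been measured in the murine colon adenocarcinoma cell line Colon26 and in its sublines LuM1, labelled as high-metastatic, and NM11, labelled as low-metastatic. All 3 lines are of BALB/c strain and female origin per the labels. They carried no further treatment or modification in the labels, and were kept in RPMI1640 medium with FBS and antibiotics. After 3 days of culture, 0.1 µg of RNA from each line was labelled with the dye Cy3 and hybridized to 1 array per line, with the 3 arrays on 1 slide. As each line is represented by 1 culture, differences between lines and between cultures cannot be told apart.

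The acute-phase response is the change in secreted proteins that follows infection or injury. It is best known in hepatocytes, in which interleukin-6 acts through STAT3 and interleukin-1 acts through NF-kB and the C/EBP factors on the genes of these proteins. Epithelial cells, macrophages and several tumour cells can also transcribe part of them. Complement is a cascade of plasma proteins in which C3 is cleaved by convertases, and factor B supplies the protease of the convertase of the alternative pathway.

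With 1 array per line the differences below had no replicate check, so no test was run and no p-value is given. Signals are the background-corrected brightness of a probe, scaled so that the 75th percentile of each array became 585.1, in arbitrary units. The error after each ± is that of the scanner software, which is technical and covers neither culture nor labelling. The lowest scaled signal that the software called well above background lay at 26.4 in Colon26, 20.1 in LuM1 and 19.6 in NM11 cells. Where a probe was not well above background in a line, the difference is given as a lower bound ("at least"). A gene was called higher or lower when its signals differed at least 2-fold. In RNA of whole cultures, fewer expressing cells and less RNA per cell cannot be told apart.

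The stretches from 250 bases before to 50 bases after the start of the gene are shown for the 5 members that the RefSeq promoter table of build GRCm38.p6 holds, because these genes differed in the same direction between the lines. The match of each promoter to the core of C/EBP sites, TTGCNNAA on either strand, is in capitals. *Lcn2* lies at chr2:32387690-32387989, minus strand, *Saa1* at chr7:46742931-46743230, minus strand, *Saa2* at chr7:46751583-46751882, plus strand, *Saa3* at chr7:46715627-46715926, minus strand, and *C3* at chr17:57228087-57228386, minus strand.
Lcn2: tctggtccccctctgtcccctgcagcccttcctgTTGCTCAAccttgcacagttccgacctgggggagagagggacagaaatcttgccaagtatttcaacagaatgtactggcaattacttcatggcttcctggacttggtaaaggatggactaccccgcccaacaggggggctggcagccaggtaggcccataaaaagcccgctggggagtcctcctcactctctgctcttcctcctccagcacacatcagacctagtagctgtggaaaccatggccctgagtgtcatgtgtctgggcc
Saa1: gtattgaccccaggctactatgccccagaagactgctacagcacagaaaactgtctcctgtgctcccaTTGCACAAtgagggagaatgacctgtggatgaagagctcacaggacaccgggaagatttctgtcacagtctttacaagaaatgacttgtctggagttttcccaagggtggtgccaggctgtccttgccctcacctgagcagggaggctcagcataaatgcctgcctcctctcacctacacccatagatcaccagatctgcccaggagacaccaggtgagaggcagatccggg
Saa2: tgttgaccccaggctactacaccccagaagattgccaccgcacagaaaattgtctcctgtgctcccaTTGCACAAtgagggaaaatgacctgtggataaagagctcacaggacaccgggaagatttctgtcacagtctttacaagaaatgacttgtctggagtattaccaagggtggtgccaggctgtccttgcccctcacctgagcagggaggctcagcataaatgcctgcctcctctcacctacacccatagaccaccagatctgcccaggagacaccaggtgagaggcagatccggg
Saa3: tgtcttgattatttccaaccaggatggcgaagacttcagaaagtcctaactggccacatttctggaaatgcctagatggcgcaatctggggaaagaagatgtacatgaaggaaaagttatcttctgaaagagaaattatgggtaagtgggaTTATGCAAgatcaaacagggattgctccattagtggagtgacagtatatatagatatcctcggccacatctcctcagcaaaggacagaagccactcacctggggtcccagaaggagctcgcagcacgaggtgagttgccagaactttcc
C3: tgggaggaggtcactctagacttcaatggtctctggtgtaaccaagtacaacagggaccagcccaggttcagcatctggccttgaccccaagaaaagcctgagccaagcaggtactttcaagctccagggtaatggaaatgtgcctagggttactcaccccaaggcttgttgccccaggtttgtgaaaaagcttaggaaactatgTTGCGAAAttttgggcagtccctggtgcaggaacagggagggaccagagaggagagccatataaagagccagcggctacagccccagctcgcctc
With the first base at the start counted as 0, the match began at base -216 in *Lcn2*, -182 in *Saa1*, -183 in *Saa2*, -99 in *Saa3* and -45 in *C3*, and the letters of *Saa3* match on the opposite strand. Each of the 5 promoters held 1 match, and 10.8% of the 32851 promoters of the table held at least 1. None of the 5 held the letters GGANNNTCC, searched as an NF-kB core and present in 8.62% of all promoters. The letters TTCNNNGAA, searched as a STAT core and present in 8.30%, were absent as well. Looser or longer forms of these sites were not searched, so the counts do not show that sites of these factors are absent. The letters TATAAA, present in 8.32% of all promoters, were found in *C3* alone, at bases 14 to 19, which is after the listed start. No pair of these matches overlapped. The promoters of *Saa1* and *Saa2* were identical in 287 of 301 aligned columns (95.3%), whereas the other pairs were identical in 45.6% to 51.3%. The matches of *Saa1* and *Saa2* are therefore not separate observations, and the count of matches beside the share of all promoters is not a test. These matches describe letters in the windows and were not tied to any measured binding.

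All 7 members were well above background in LuM1 cells, against 6 in NM11 cells and 3 in Colon26 cells. Against Colon26 cells, LuM1 cells had signals at least 2-fold higher for all 7 and lower for none, with 3 measured ratios and 4 bounds. Among 14350 genes that could be compared, 12.9% were at least 2-fold higher and 11.7% at least 2-fold lower. The median log2 ratio of the members was 7.88 with bounds included. That of all genes was -0.097 with bounds included and -0.13 over measured genes only. Against NM11 cells, LuM1 cells were at least 2-fold higher for 6 of the 7, where 11.1% of 14412 genes were higher and 8.5% lower, and all 6 that could be compared were higher in NM11 than in Colon26 cells, where 8.17% of 14106 genes were higher and 7.73% lower. The median log2 ratio of the members with bounds was 3.29 for LuM1 over NM11 and 5.58 for NM11 over Colon26. Every member except *Hp* passed 2-fold in LuM1 cells against each of the other lines, which held for 7.33% of the 14825 genes that could be compared.

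**Figure D1:**
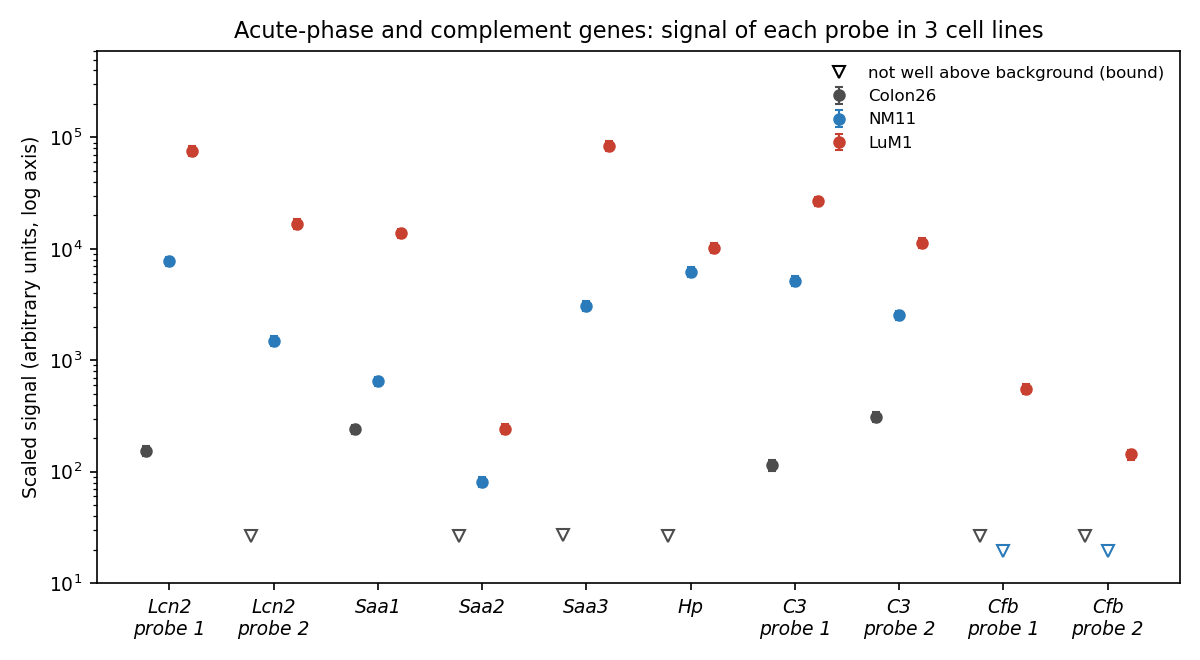
Scaled signal of each of the 10 probes of the 7 genes on a log axis, with 1 point per cell line, the scanner error as bars, and open triangles at the value used as bound where a probe was not well above background. LuM1 has the highest point for every probe, and Colon26 has a bound for 6 of the 10 probes.

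*Lcn2* encodes lipocalin-2, a secreted protein that binds bacterial siderophores and thereby iron. Its brighter probe gave a signal of 154 ± 16.4 in Colon26 cells, 7731 ± 773 in NM11 cells and 75728 ± 7573 in LuM1 cells. All 3 signals were well above background and far apart relative to the scanner error. The *Lcn2* mRNA level of LuM1 cells was thus 490-fold that of Colon26 cells (log2 ratio 8.94 ± 0.21) and 9.80-fold that of NM11 cells (3.29 ± 0.20). NM11 cells held 50.1-fold the level of Colon26 cells (5.65 ± 0.21). Among 12391 genes with a measured ratio of LuM1 over Colon26, *Lcn2* ranked 4 from the highest. The other probe of *Lcn2* was not well above background in Colon26 cells and gave 1490 ± 149 in NM11 cells and 16734 ± 1673 in LuM1 cells. Its ratios were at least 634-fold for LuM1 over Colon26, 11.2-fold for LuM1 over NM11 and at least 56.4-fold for NM11 over Colon26. The order of the lines was the same with both probes.

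*Hp* encodes haptoglobin, which binds free haemoglobin in plasma. Its signal was 9.43 ± 5.36 in Colon26 cells, not well above background, 6213 ± 621 in NM11 cells and 10221 ± 1022 in LuM1 cells. The gene was therefore measured in both sublines and not in the parental line. Relative to Colon26 cells the difference was at least 387-fold in LuM1 and at least 235-fold in NM11 cells. Between the sublines the difference was 1.65-fold (log2 ratio 0.72 ± 0.20), under the 2-fold threshold, and *Hp* was the only member not called between them.

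*Saa1*, *Saa2* and *Saa3* encode serum amyloid A, small apolipoproteins of high-density lipoprotein that are released in the acute phase. *Saa3* was not well above background in Colon26 cells (27.3 ± 6.55) and gave 3069 ± 307 in NM11 cells and 84512 ± 8451 in LuM1 cells. Relative to Colon26 cells the difference was at least 3099-fold in LuM1 and at least 113-fold in NM11 cells, and the sublines lay 27.5-fold apart (log2 ratio 4.78 ± 0.20). This was the largest ratio between the sublines among the 6 members measured in both, and it ranked 40 of 12845 measured genes.

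*Saa1* was well above background in all 3 lines, with signals of 241 ± 24.7 in Colon26, 649 ± 65.0 in NM11 and 13782 ± 1378 in LuM1 cells. LuM1 cells exceeded Colon26 cells 57.3-fold (log2 ratio 5.84 ± 0.21) and NM11 cells 21.2-fold (4.41 ± 0.20). NM11 and Colon26 lay closer together for this gene, 2.70-fold apart (1.43 ± 0.21). *Saa2* was not well above background in Colon26 cells (17.8 ± 6.32) and gave 81.5 ± 9.07 in NM11 cells and 241 ± 24.6 in LuM1 cells. Its ratios were at least 9.12-fold for LuM1 over Colon26, 2.96-fold for LuM1 over NM11 (1.56 ± 0.22) and at least 3.08-fold for NM11 over Colon26. RefSeq lists *Saa1* and *Saa2* as synonyms of each other, and their probes may share targets, so the split between them is uncertain. The probes' sequences were not used here.

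*C3* encodes the central component of complement, at which the activation pathways meet. Its brighter probe gave 114 ± 12.8 in Colon26 cells, 5186 ± 519 in NM11 cells and 26806 ± 2681 in LuM1 cells. LuM1 cells thus exceeded Colon26 cells 235-fold in *C3* (log2 ratio 7.88 ± 0.22) and NM11 cells 5.17-fold (2.37 ± 0.20). NM11 cells exceeded Colon26 cells 45.5-fold (5.51 ± 0.22). The other *C3* probe gave 312 ± 31.9, 2534 ± 253 and 11341 ± 1134 in the same order of lines, and hence 36.3-fold for LuM1 over Colon26, 4.48-fold for LuM1 over NM11 and 8.12-fold for NM11 over Colon26. The probes gave the same order of lines but disagreed in size wherever Colon26 was the denominator.

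*Cfb* encodes complement factor B. Its brighter probe gave 553 ± 55.4 in LuM1 cells, and was not well above background in Colon26 cells (7.86 ± 5.82) or in NM11 cells (13.6 ± 4.39). It was the only member detected in LuM1 cells alone. The difference was at least 20.9-fold from Colon26 cells and at least 28.2-fold from NM11 cells. The other probe, of 143 ± 15.1 in LuM1 cells, gave at least 5.42-fold and at least 7.31-fold. Between NM11 and Colon26 cells *Cfb* had no ratio, because it was not well above background in either.

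Placed side by side, NM11 cells held between 3.63% (*Saa3*) and 60.8% (*Hp*) of the LuM1 signal for the 6 members measured in both, and at most 3.54% for *Cfb*. *Lcn2* stood at 10.2%, *Saa1* at 4.71%, *Saa2* at 33.8% and *C3* at 19.3%. In Colon26 cells the corresponding shares were 0.204% for *Lcn2*, 1.75% for *Saa1* and 0.425% for *C3*, and at most 11.0% for *Saa2*, 0.0323% for *Saa3*, 0.258% for *Hp* and 4.78% for *Cfb*. NM11 cells thus lay between the other lines for the 6 members it measured, close to LuM1 for *Hp* and close to Colon26 for *Saa1*.

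**Figure D2:**
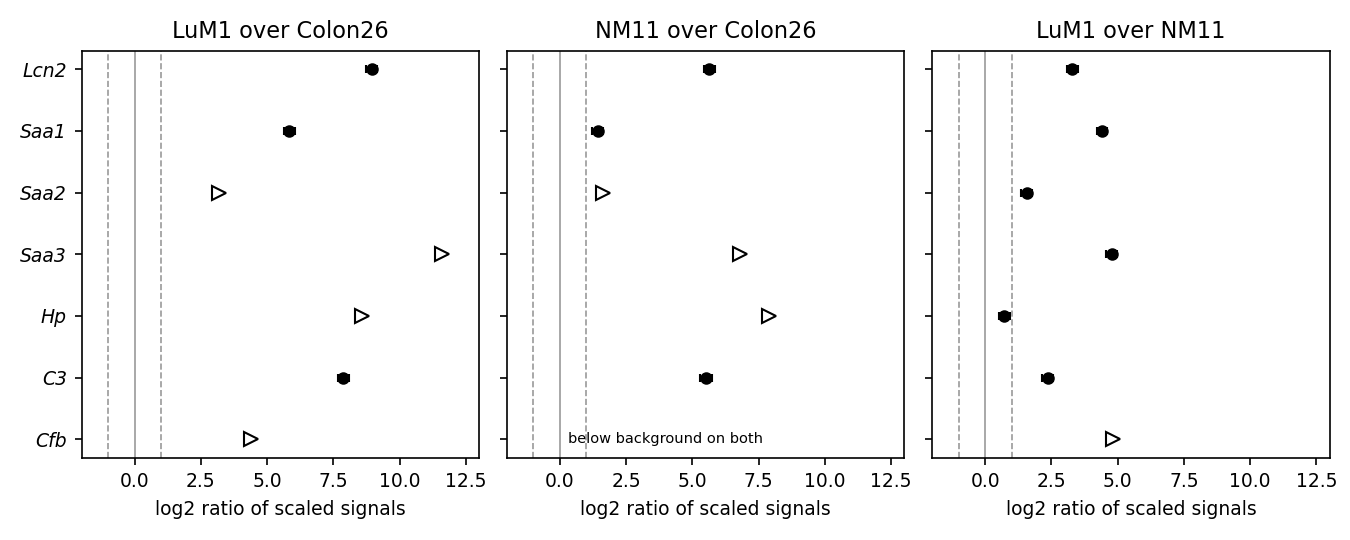
Log2 ratio of scaled signals for each of the 7 genes in the 3 comparisons of lines, as measured ratios with the scanner error (filled points) or lower bounds (open arrowheads), with dashed lines at 2-fold. Every value lies to the right of 0, and only *Hp* between LuM1 and NM11 lies inside 2-fold.

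The genes whose pattern over the 3 lines came nearest to a member were found by the distance between pairs of log2 ratios, of LuM1 over Colon26 and over NM11, taken over the 12242 genes that every array measured. This could be done for *Lcn2*, *Saa1* and *C3*. Nearest to *Lcn2* were *C3* (distance 1.40), *Slpi* (1.41), an inhibitor of leukocyte proteases, and *Gda* (1.88), a guanine deaminase. *Slpi* had a signal of 120 in Colon26, 22868 in NM11 and 96502 in LuM1 cells. Nearest to *C3* were *Gda* (0.56), *Lcn2* (1.40) and *Sipa1l2* (1.46). For *C3* these distances rest on its brighter probe, with log2 ratios of 7.88 over Colon26 and 2.37 over NM11. Its other probe gave 5.18 and 2.16, for which no distances were computed, so the pairings with *C3* depend on the probe. Nearest to *Saa1*, for which NM11 lay close to Colon26, were *Cyth4* (0.63), *Slc12a5* (0.87) and *Rerg* (0.88).

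The members were next set beside 5 further lists of genes of the same response, and the counts for LuM1 over Colon26 read against 12.9% higher and 11.7% lower for all genes. Both comparisons with Colon26 share the Colon26 array, and both comparisons with LuM1 share the LuM1 array, so their values are given side by side only. The list of other acute-phase proteins had 23 genes with a probe, of which 15 were not well above background in any line, among them *Crp*, *Apcs*, *Orm1*, *Serpina3n*, *Hamp* and the fibrinogen genes *Fga*, *Fgb* and *Fgg*. Of the 7 genes that could be compared between LuM1 and Colon26 cells, 3 were higher and none lower. The median log2 ratio was 0.39 with bounds included and 0.20 over measured genes only. Not called were 4 genes, *Hpx*, *Itih4*, *Mt1* and *Mt2*. *Mt1* and *Mt2* were the brightest of the list, with log2 ratios of 0.21 and 0.19, although a dimmer probe of *Mt1* gave 1.29.

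The 3 higher genes were *Cp*, *Serpina3i* and *Lbp*. *Cp* encodes the copper-carrying ferroxidase ceruloplasmin, and its brightest probe gave 564 in Colon26, 7112 in NM11 and 6210 in LuM1 cells, so that both sublines were higher, 12.6-fold and 11.0-fold. *Serpina3i*, of a serine protease inhibitor family of near-identical copies, was not well above background in Colon26 cells and gave 357 in NM11 and 389 in LuM1 cells, at least 13.5-fold and at least 14.7-fold higher. *Lbp*, the lipopolysaccharide-binding protein, was at 52.9 in LuM1 cells, which is just past the 2-fold threshold as a bound. The sublines lay close together for *Cp* and *Serpina3i*, with log2 ratios of LuM1 over NM11 of -0.20 and 0.12. *Ptx3*, a long pentraxin, was measured only in NM11 cells (54.2) and was at least 2.69-fold lower in LuM1 cells.

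Of 23 further genes of complement activation, 10 were not well above background in any line, including *C1qa*, *C1qc*, *Mbl1*, *Mbl2*, *Hc* and *C6*. Between LuM1 and Colon26 cells 8 of 13 were higher and 2 lower, with a median of the measured log2 ratios of 1.64. Between LuM1 and NM11 cells 6 of 13 were higher and 1 lower, against 11.1% and 8.5% of all 14412 genes compared. Between NM11 and Colon26 cells 4 of 11 were higher and 3 lower, against 8.17% and 7.73% of 14106 genes.

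The proteases of the classical pathway were among the genes higher in LuM1 cells. *C1s1* gave 287 in Colon26, 1961 in NM11 and 7933 in LuM1 cells, so that LuM1 exceeded Colon26 cells 27.7-fold and NM11 cells 4.05-fold. *C1ra*, its partner in the C1 complex, gave 287, 1825 and 4026 in the same order, which is 14.0-fold and 2.21-fold. Both were graded as *Lcn2* and *C3* were, from Colon26 through NM11 to LuM1.

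*C2*, which supplies the protease of the classical convertase, had another order. It gave 375 in Colon26, 64.3 in NM11 and 1162 in LuM1 cells, and was 3.10-fold higher in LuM1 and 5.82-fold lower in NM11 than in Colon26 cells. *C8g* and *C9*, components of the membrane attack complex, were highest in LuM1 cells. *C8g* gave 53.2 in Colon26, 67.2 in NM11 and 326 in LuM1 cells, and *C9* gave 301 in LuM1 cells and was not well above background in the others, at least 11.4-fold over Colon26 and at least 15.4-fold over NM11. Of the other genes of the membrane attack complex listed beside them, *C7* gave 56.9 in Colon26, 63.7 in NM11 and 49.2 in LuM1 cells, within 2-fold, and *Hc*, *C6*, *C8a* and *C8b* were not well above background in any line.

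**Figure D3:**
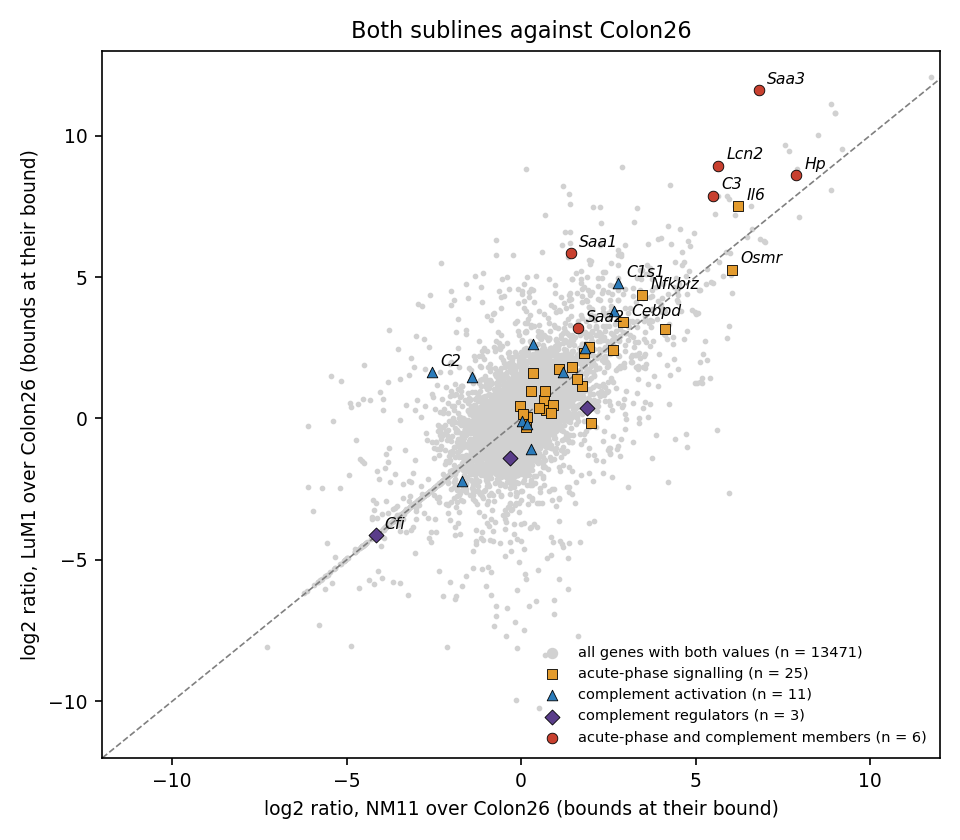
Log2 ratio of LuM1 over Colon26 against that of NM11 over Colon26 for 13471 genes, with the members and 3 lists coloured, bounds drawn at their bound, and the Colon26 array shared by both axes. The 6 members shown lie above the dashed diagonal of equal ratios, *Hp* nearest to it, and *C2* lies on the opposite side of 0 in NM11.

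Of 12 regulators of complement, 6 were not well above background in any line, among them *Cd55*, *Cd59a* and *Vtn*. None of the 4 that could be compared was higher in LuM1 than in Colon26 cells, and 2 were lower. *Cfi* encodes factor I, the protease that inactivates cleaved C3, and gave 348 in Colon26 cells and no signal well above background in either subline, so that it was lower by at least 17.3-fold in LuM1 and by at least 17.8-fold in NM11 cells. Around the *Cfi* spot, 13.7% of neighbouring spots were well above background on the Colon26 array alone, against 1.89% over the whole array, and the part of this in the *Cfi* value was not tested. For the 7 members the corresponding share was at most 1.80%.

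*Cr1l*, a membrane regulator of C3 deposition, gave 7243 in Colon26, 5837 in NM11 and 2745 in LuM1 cells, a log2 ratio of -1.40 for LuM1 over Colon26. *Clu*, clusterin, which inhibits the membrane attack complex, gave 2669 in Colon26, 9795 in NM11 and 3482 in LuM1 cells, and was thus highest in NM11 cells. Between the sublines, *Cr1l* and *Clu* were thus lower in LuM1 cells, and *Serping1*, the C1 inhibitor, was higher, with 44.1 in LuM1 cells and no signal well above background in the other lines.

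Among 17 receptors of the products, 5 were not well above background in any line, including the C3a receptor *C3ar1* and the haptoglobin-haemoglobin receptor *Cd163*. Of 12 that could be compared, 3 were higher and 3 lower in LuM1 than in Colon26 cells. *Tlr2*, a receptor of bacterial lipoproteins to which serum amyloid A also binds, was not well above background in Colon26 cells and gave 68.7 in NM11 and 542 in LuM1 cells, which puts LuM1 at least 20.5-fold above Colon26 cells and 7.89-fold above NM11 cells. *Tlr4* gave 595 in Colon26, 839 in NM11 and 1770 in LuM1 cells, 2.98-fold over Colon26. *Slc22a17*, the lipocalin-2 receptor, gave 71.4 in LuM1 and 28.8 in NM11 cells, 2.48-fold apart. *C5ar1*, the C5a receptor, gave 52.0 in Colon26 cells and was not well above background in either subline, at least 2.58-fold lower in LuM1 cells.

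The list of acute-phase signalling held 31 cytokines, receptors and transcription factors, of which 25 were measured in at least 1 line. Here 13 of 25 were higher in LuM1 than in Colon26 cells and none lower, and 13 of 25 were higher in NM11 than in Colon26 cells and none lower, against 8.17% and 7.73% of all genes. Between the sublines 2 were higher and 1 lower in LuM1 cells, against 11.1% and 8.5% of all genes, and the median log2 ratio was -0.00303, a sign that other scalings turn. Of the 7 members, by comparison, 6 were higher and none lower between the sublines.

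*Il6* was not well above background in Colon26 cells and gave 1969 in NM11 and 4770 in LuM1 cells, at least 74.6-fold and at least 181-fold higher, and 2.42-fold apart between the sublines. *Osmr*, the oncostatin M receptor, gave 56.8 in Colon26, 3728 in NM11 and 2183 in LuM1 cells, 65.7-fold and 38.5-fold higher. *Nfkbiz* encodes a nuclear IkB protein that serves in the induction of *Lcn2*, and gave 179 in Colon26, 1967 in NM11 and 3651 in LuM1 cells. *Cebpd*, one of the C/EBP factors, gave 4673, 35705 and 49178 in the same order, 7.64-fold and 10.5-fold higher. These 4 genes were all higher in both sublines than in Colon26 cells.

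The other genes higher in both sublines were *Il6st*, *Lif*, *Il1r1*, *Il1rap*, *Stat3*, *Socs3*, *Relb* and *Nfkbia*. For *Il6st* this depends on the probe in LuM1 cells. Its dimmer probe gave log2 ratios of 0.72 for LuM1 over Colon26, under 2-fold, 2.27 for NM11 over Colon26 and -1.55 for LuM1 over NM11. *Il11* was higher in LuM1 cells only, at 830 against 276 in Colon26 and 347 in NM11 cells. *Cebpa* was higher in NM11 cells only, at 355 against 88.1 in Colon26 and 79.5 in LuM1 cells, a log2 ratio of LuM1 over NM11 of -2.16. *Il1a*, *Il1b*, *Osm*, *Lifr* and *Hnf4a* were among those not well above background in any line.

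**Figure D4:**
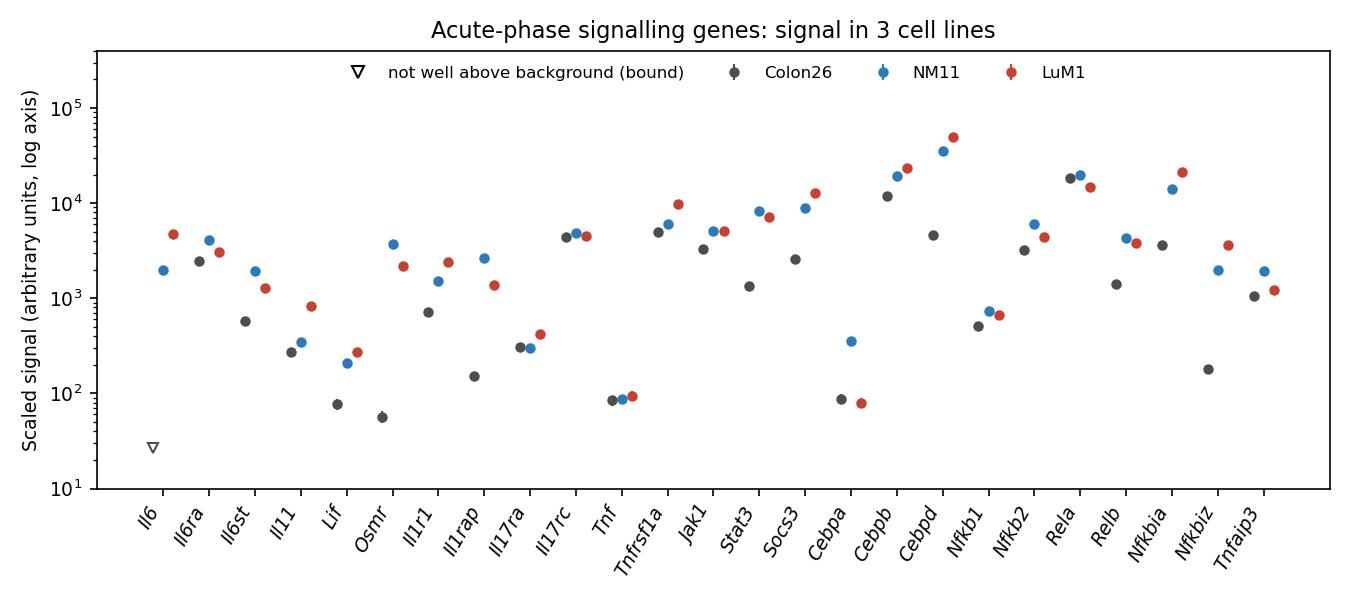
Scaled signal of the 25 acute-phase signalling genes measured in at least 1 line, on a log axis, with 1 point per cell line, the scanner error as bars, and open triangles where a value was not well above background. NM11 and LuM1 points both lie at least 2-fold above Colon26 for 12 genes, *Il6*, *Osmr*, *Nfkbiz* and *Cebpd* among them.

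Markers of cell types known to make these proteins were compared as well. Of 8 hepatocyte markers 2 were well above background in Colon26, 3 in LuM1 and 5 in NM11 cells, with a summed signal between 1375 and 1515. Most of this was *Apoa2* alone, at 1354 in Colon26, 1226 in NM11 and 1310 in LuM1 cells. The defining *Alb* and *Ttr* were not detected in any line, and *Ahsg* was detected in LuM1 cells alone (141). Of 8 macrophage markers 3 were detected in Colon26, 5 in LuM1 and 3 in NM11 cells, and their summed signal was 2007, 10339 and 1962. The pan-leukocyte *Ptprc* and the macrophage markers *Adgre1* and *Mrc1* were not well above background in any line. *Csf1r* was well above background in all 3 and nearly equal, at 682 in Colon26, 675 in NM11 and 691 in LuM1 cells. *Cd68*, *Cd14*, *Lyz2* and *Aif1* passed 2-fold in LuM1 cells against each of the others.

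Of 7 neutrophil markers with a probe 4 were detected in each line. Their summed signal was 603 in Colon26, 867 in NM11 and 18845 in LuM1 cells, of which *S100a8* made up 18268 in LuM1 cells, and *S100a9*, *Ngp* and *Cxcr2* were not detected. Of 7 fibroblast markers 4 were detected in Colon26 and 6 in each subline, with a summed signal of 66026 in Colon26, 118568 in NM11 and 54291 in LuM1 cells. Between LuM1 and Colon26 cells 3 were higher and 2 lower. LuM1 exceeded Colon26 cells at least 1041-fold in *Dcn*, at least 741-fold in *Thy1* and 18.2-fold in *Pdgfra*, whereas *Col1a2* was 1207-fold and *Col1a1* 2.19-fold lower in LuM1 cells, and *Lum* was not detected. Of 9 markers of colon epithelium 3 to 4 were detected per line, with a summed signal of 1123 in Colon26, 362 in NM11 and 422 in LuM1 cells. *Krt20* gave 651 in Colon26, 157 in NM11 and 54.5 in LuM1 cells, and *Cdx2* gave 443, 167 and 232 in the same order. *Krt8* was also detected in every line, and *Epcam* in LuM1 cells alone. *Cdh1*, *Krt18*, *Krt19*, *Vil1* and *Cdh17* were not detected in any, so the labelled tissue is only partly borne out by its markers. The part of the markers that moved with LuM1 cells in the values of the members was not tested.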

How the data were processed

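Total RNA of 3 cell lines was labelled with Cy3 and hybridized to 1 single-colour Agilent array per line. Per spot, the authors deposited an intensity value that Feature Extraction 11.5.1.1 had corrected for background and detrended, and flags of 0 or 1 per spot (saturation, outlier, well above background). No spot was saturated. They also deposited processed intensity values, equal within 1% to the scanner values after multiplication by a constant (Colon26 0.654, LuM1 0.829, NM11 0.706). The text of the study names no normalization.

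Here control spots and outlier spots (137 on the Colon26, 74 on the LuM1 and 99 on the NM11 array) were left out, spots of a probe were averaged, and signals were scaled to the 75th percentile of their array. Probes were named through RefSeq accessions (58.3% of probes). A gene was represented by its probe with the highest mean log2 signal. Differences were log2 ratios called at 2-fold. A probe not well above background on 1 array entered as a bound. No ratio was given where it was not well above background on both arrays or where a bound fell under 1. Array number limits the precision.

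The members and lists were chosen with earlier results of these data known. Named were all members, up to 4 genes per list with the largest ratio of LuM1 over Colon26 and up to 2 of LuM1 over NM11, past 2-fold, and the 3 genes nearest in pattern to each member measured on all arrays. Named beside these, after their values were seen, were genes that illustrate a count. Some genes of the lists are not reported here by name. Alternatives were 5 scalings or normalizations, the normexp correction (offset 50), the authors' processed intensity values, 2 detection rules, 2 choices of probe and a 4-fold threshold. The ratio script was tested on simulated data. Python 3.11.15 with numpy 2.4.6, pandas 2.3.3 and biopython 1.88 did the computing, and limma 3.58.1 in R 4.3.3 the normexp step.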

Additional observations from a re-analysis of the deposited data

Results flagged for a closer look

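*C2*, the convertase protease of the classical pathway, was higher in LuM1 than in Colon26 cells (log2 ratio 1.63) and lower in NM11 than in Colon26 cells (-2.54), so that the sublines moved in opposite directions from the parental line. *Fcna*, a lectin-pathway recognition protein named after its values were seen, did the same, with 1.47 in LuM1 and -1.42 in NM11 cells. Each line has 1 array, the difference was not tested, and both ratios share the Colon26 array.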

How the results depend on the processing

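All 20 log2 ratios or bounds of the members kept their direction under each of the 11 alternatives that recompute them, but 77 of the values moved by more than the scanner error and 143 did not. With normexp the bounds were lower, and the log2 value for LuM1 over Colon26 fell from 11.60 to 9.73 for *Saa3*, 8.60 to 7.14 for *Hp*, 4.39 to 2.94 for *Cfb* and 3.19 to 1.70 for *Saa2*. For NM11 over Colon26 it fell from 6.81 to 4.94 for *Saa3* and 7.88 to 6.39 for *Hp*, and for LuM1 over NM11 from 4.82 to 2.85 for *Cfb*. With looser detection the values for LuM1 over Colon26 were higher, 10.08 for *Hp* and 6.14 for *Cfb*. In each alternative, the 4-fold threshold included, the count of members higher in LuM1 against Colon26 cells stayed at 7. Between LuM1 and NM11 cells the count of 6 became 7 with scaling to *Hprt* or the authors' processed values, since *Hp* then passed 2-fold (log2 ratio 1.31 with *Hprt*), and 5 at a 4-fold threshold. Between NM11 and Colon26 cells the count of 6 became 5 with *Hprt* (*Saa1* 0.94) or normexp (*Saa2* 0.65), and 4 at 4-fold. The *C3* ratio of LuM1 over Colon26 was 6.53 as the mean over its probes.

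For LuM1 over Colon26, the signalling count of 13 became 20 with spike-in scaling and 8 at 4-fold, that of complement activation fell from 10 to 6 at 4-fold, that of receptors from 6 to 3 with normexp and 1 at 4-fold, and that of regulators went from 2 to 4 with looser detection or no filter and 1 at 4-fold. The median over all genes shifted by 0.45 and 0.41 (LuM1 over Colon26 and over NM11) with the authors' values, by 0.72 and 0.12 with spike-ins, by 0.10 and 0.59 with *Hprt*, and by 0.11 and 0.18 without scaling, and for NM11 over Colon26 by 0.60 with spike-ins and -0.49 with *Hprt*. The share of higher among called genes, 52.5%, 56.6% and 51.4% for LuM1 over Colon26, LuM1 over NM11 and NM11 over Colon26, became 77.7%, 81.4% and 54.0% with the authors' values, 86.6%, 64.7% and 84.9% with spike-ins and 58.6%, 87.8% and 20.1% with *Hprt*, and for LuM1 over NM11 68.6% without scaling. No paired analysis was possible because each line has 1 array. Signals near background have only bounds.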
